A study of Homo sapiens with 4 samples.

Results

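The ubiquitin-conjugating (E2) genes and the ubiquitin-specific protease (USP) genes were read in U937 cells, an established human line from a lymphoma of monocytic character. Members were all genes whose symbol starts with UBE2, or with USP and a digit, without USP9Y and USP6NL, and only probe sets that the array annotation pairs with 1 gene symbol were used. This gave 83 of 19775 genes, 32 UBE2 and 51 USP genes, with 217 probe sets. Of these genes, 71 are protein-coding and 12 are antisense transcripts, divergent transcripts or pseudogenes that carry a family symbol. The treated cells had received shikonin, a naphthoquinone from gromwell roots, at 100 nM for 3 h (2 samples), and the control cells the solvent dimethyl sulfoxide (DMSO, 2 samples). Each sample was read on 1 Affymetrix U133 Plus array. Values are signals, linear intensities of a probe set, and since a signal depends on the probes as well as on the transcript, single genes were not ranked against each other by it. Nothing in the labels says that the samples of a group were separate cultures, so the spread between them may be technical.

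Ubiquitin is attached to proteins by a relay. An E1 enzyme activates it, an E2 enzyme carries it on a cysteine, and an E3 ligase places it on the target, where chains of different linkage mark proteins for the proteasome, for sorting or for signalling. A few E2 enzymes carry ubiquitin-like modifiers such as NEDD8 or ISG15 in its place. USP enzymes, the most numerous class of human deubiquitinases, cut ubiquitin off again, and their targets range from histones to receptors and chains held by the proteasome.

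In shikonin against DMSO, 2 UBE2 genes fell, and among the USP genes 3 rose and 5 fell. These 10 made up 13.0% of the members tested, a share close to the 11.7% called over all genes. After a filter on dim probe sets, 77 member genes were tested on their brightest probe set, 29 UBE2 and 48 USP genes. A gene was called where limma gave it an adjusted p under 0.05 (Benjamini-Hochberg, over the 32768 probe sets that passed). Of the 29 UBE2 genes, 0 were called higher and 2 lower, UBE2R2 and UBE2H. Of the 48 USP genes, 3 were called higher (USP37, USP45 and USP14) and 5 lower (USP44, USP12, USP25, USP32P2 and USP3). Over all 13559 genes tested, 5.00% were called higher, 6.67% lower and 11.7% in either direction. The share called was 6.90% of UBE2 genes and 16.7% of USP genes. At an unadjusted p under 0.05 there were 4 UBE2 genes higher and 3 lower, and 5 USP genes higher and 13 lower. The fit lets the variance depend on brightness. When 1 prior variance was used for all probe sets instead, limma called 0 members and 0 of all genes, and 16 members had an unadjusted p under 0.05. Leaving out shikonin 1, shikonin 2, DMSO 1 or DMSO 2 left 0, 0, 0 and 1 UBE2 genes called lower and 0, 0, 1 and 0 called higher (UBE2Q2P13 at -0.87 without DMSO 2 and UBE2NL at 0.50 without DMSO 1, neither called with all arrays), while 3, 3, 2 and 5 USP genes were called lower and 0, 2, 1 and 1 higher.

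The median log2 change (shikonin minus DMSO) was 0.03 for UBE2 genes and -0.04 for USP genes, against 0.00 over all genes tested. The quartiles of the UBE2 changes lay at -0.07 and 0.19, those of the USP changes at -0.26 and 0.16, and those of all genes at -0.22 and 0.17. Changes smaller than 0.25 in size made up 75.9% of UBE2 genes, 56.2% of USP genes and 60% of all genes. The family mean of log2 signals was 10.77 and 10.79 on the shikonin arrays and 10.74 and 10.72 on the DMSO arrays for UBE2 genes. For USP genes it was 9.44 and 9.42 on the shikonin arrays and 9.48 and 9.46 on the DMSO arrays. The UBE2 median lay 0.07 above the USP median, a difference that was not tested. Without shikonin 1, shikonin 2 or DMSO 1 it was 0.13, 0.11 or 0.12. Without shikonin 1 the USP median was -0.09, and the UBE2 median was 0.07 without shikonin 2 and 0.06 without DMSO 1.

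**Figure D1:**
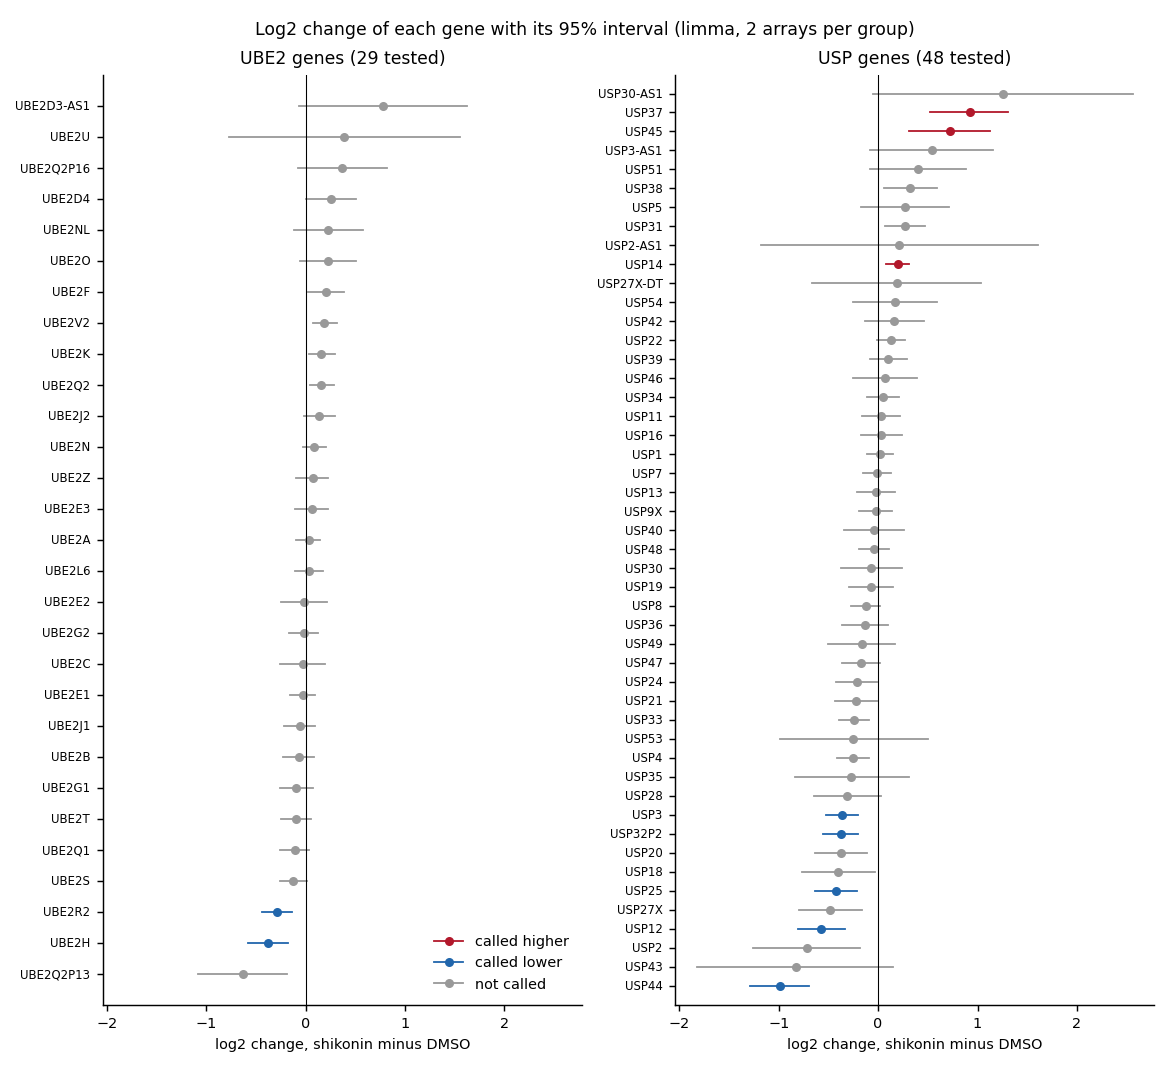
Log2 change (shikonin minus DMSO, x axis) of each tested gene on its brightest probe set, UBE2 genes left and USP genes right. Points are estimates, bars are 95% intervals from limma with 2 arrays per group, and colour marks genes called at an adjusted p under 0.05. Of the UBE2 genes 2 are called lower, and of the USP genes 3 are called higher and 5 lower, with USP44 (-0.99) at the bottom.

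The 6 genes that failed the filter were UBE2DNL, UBE2E2-DT, UBE2QL1, USP26, USP29 and USP46-DT. On all 4 arrays their probe sets stayed under that array's own 40th percentile (34.8 to 37.4), except UBE2DNL, which had signals of 1.98 and 50.8 in shikonin and of 3.64 and 2.92 in DMSO. Each array had been scaled to the same trimmed mean, so all changes are relative to the rest of the array, and a lower signal cannot tell fewer cells with a transcript from less of it per cell. Of 13 listed myeloid markers, 11 were measured, with summed signals of 46733 and 50553 in shikonin and of 49746 and 51835 in DMSO. Limma called 0 of the 9 tested ones, and 1 had an unadjusted p under 0.05. CD14 and FCGR1A lay below the 40th percentile on all arrays. Of 14 listed markers of other lineages, 11 were measured, with sums of 7824 and 7965 in shikonin and of 7659 and 7995 in DMSO, and limma called 0 of 8 (0 at an unadjusted p under 0.05). EPCAM lay below the 40th percentile on all arrays. NKG7 (4960 and 5123 in shikonin) and PECAM1 (2122 and 2062 in shikonin) made up most of these sums. ELANE (19369 and 20677 in shikonin), CEBPA (12983 and 14260 in shikonin) and LYZ (9151 and 9585 in shikonin) made up most of the myeloid sums. The sums therefore say little about the dimmer markers. Median signals were 61.0 and 63.7 on the shikonin arrays and 60.5 and 62.2 on the DMSO arrays.

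Among the E2 genes of chain initiation, the group around UBE2D and UBE2E that places the first ubiquitin with many E3 ligases, limma called 0 of 4 tested (0 at an unadjusted p under 0.05). The list for this group holds 9 genes, and the others, most of the UBE2D genes among them, were not analysed here. UBE2D4 had signals of 769 and 911 in shikonin against 664 and 737 in DMSO. Its log2 change was 0.26 (SE 0.11, limma adjusted p = 0.209), and its 4 other tested probe sets ran from -0.18 to 0.32 without passing. UBE2E3 read 2283 and 2254 in shikonin against 2298 and 2058 in DMSO, so its groups overlapped (log2 change 0.06). The changes of UBE2E1 (-0.03) and UBE2E2 (-0.02) were smaller still.

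Of 7 E2 genes of cell cycle and DNA repair, limma called 0, with 1 at an unadjusted p under 0.05. UBE2C, the first E2 of the anaphase-promoting complex, had 685 and 751 in shikonin against 758 and 709 in DMSO, a log2 change of -0.03 with a 95% interval of -0.26 to 0.20. UBE2S, which extends the chains on targets of the same complex, had 8910 and 9458 in shikonin against 9667 and 10374 in DMSO (log2 change -0.13, limma adjusted p = 0.229). After quantile normalization UBE2S was called lower (-0.21, limma adjusted p 0.0251). The RAD6 homologues, which act in replication bypass and on histone H2B, lay near 0 on their brightest probe sets, at 0.03 for UBE2A and -0.07 for UBE2B. The 5 other tested probe sets of UBE2B ran from 0.12 to 0.67, and none was called, so its probe sets disagree in sign. UBE2N, which builds chains linked through lysine 63, was read by a cross-hybridizing probe set at 7885 and 7978 in shikonin against 7331 and 7590 in DMSO. Its log2 change was 0.09 (limma adjusted p = 0.351). Its inactive partner UBE2V2 had 7670 and 7321 in shikonin against 6699 and 6407 in DMSO, a log2 change of 0.19 that did not pass (limma adjusted p = 0.066). UBE2T, the E2 of the Fanconi anaemia pathway, had a log2 change of -0.10 that did not pass.

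UBE2R2 was the member called among the 6 E2 genes of the endoplasmic reticulum and of degradation (16.7%, against 11.7% of all genes tested). It is the close relative of CDC34 and, like it, extends ubiquitin chains with cullin-RING ligases. Its signals were 2711 and 2568 in shikonin against 3246 and 3212 in DMSO, all shikonin values below all DMSO values. The log2 change was -0.29 (SE 0.065, limma adjusted p = 0.0254). Its other probe set, at 772 and 813 in shikonin against 1107 and 1080 in DMSO, fell by 0.46 on the log2 scale (limma adjusted p = 0.014), a call lost without shikonin 1 or DMSO 1 (0.0601 and 0.0572). The change of CDC34 itself was -0.13. Without shikonin 1, shikonin 2, DMSO 1 or DMSO 2, the adjusted p of the brighter UBE2R2 probe set was 0.0536, 0.127, 0.0847 or 0.0713 at log2 changes of -0.25 to -0.33. UBE2K, an E2 that can build chains linked through lysine 48 without help, had 3704 and 3677 in shikonin against 3257 and 3334 in DMSO. All 3 of its probe sets lay between 0.15 and 0.19, without passing (limma adjusted p = 0.133 on the brightest). The E2 genes that act with the ligases of the reticulum membrane, UBE2G1, UBE2G2, UBE2J1 and UBE2J2, lay between -0.10 and 0.14 on their brightest probe sets, and none passed. A dim probe set of UBE2G2 lay at -1.46, and on the mean of its probe sets UBE2G2 was called lower (-0.39, limma adjusted p 0.0493).

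The E2 genes of ubiquitin-like modifiers gave 0 calls by limma among 2 tested of 4 listed, and 1 had an unadjusted p under 0.05. The others were not analysed here. UBE2F, an E2 of NEDD8, which activates cullin ligases, had 1408 and 1505 in shikonin against 1278 and 1241 in DMSO (log2 change 0.21, limma adjusted p = 0.152). Its 3 other probe sets ran from 0.02 to 0.29. UBE2L6, the E2 of the interferon-induced modifier ISG15, had 3728 and 3456 in shikonin against 3514 and 3503 in DMSO, with a 95% interval of the log2 change of -0.11 to 0.18. The change of ISG15 itself was 0.14 and did not pass.

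Of the other 7 E2 genes, 1 fell (14.3%, against 11.7% of all genes tested called in either direction). UBE2H, the E2 of the multi-subunit CTLH ligase, had 859 and 820 in shikonin against 1091 and 1096 in DMSO (log2 change -0.38, SE 0.088, limma adjusted p = 0.0291). A second probe set, at 22.7 and 41.1 in shikonin against 116 and 106 in DMSO, was called too, but 1 of its shikonin values lay below the 40th percentile of the array, which leaves its log2 change of -1.57 uncertain, and the call ended without shikonin 1, DMSO 1 or DMSO 2 (0.105, 0.165 and 0.126). The 3 remaining tested probe sets ran from -0.36 to 0.02 and did not pass. The call on the brightest one ended without shikonin 1, shikonin 2, DMSO 1 or DMSO 2 (limma adjusted p 0.065, 0.112, 0.0894 and 0.0964), and without probe sets whose names end in _x_at or _s_at the change was -0.21 (0.348). UBE2Q2 (0.16), UBE2O (0.23), UBE2Z (0.07), UBE2Q1 (-0.11), UBE2U (0.39) and the pseudogene UBE2NL (0.23) did not pass. Of the 25 protein-coding UBE2 genes tested, 21 had a 95% interval wholly within 0.5 of 0 on the log2 scale (84.0%). Without regard to coding, the share was 72.4% of UBE2 genes, 52.1% of USP genes and 46.9% of all genes tested. The width of an interval depends on brightness in this fit. Median signals were 2885 for UBE2 genes, 880 for USP genes and 580 for all genes, and the part of brightness in these shares was not tested.

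Among the USP genes that act in chromatin and the nucleus, 2 of 12 fell and 0 rose (16.7% called, against 11.7% of all genes tested). USP44, which removes ubiquitin from histone H2B and acts in the mitotic checkpoint, had 532 and 455 in shikonin against 895 and 1095 in DMSO. Every shikonin value was lower than every DMSO value. At 1.99-fold lower (log2 change -0.99, SE 0.13, limma adjusted p = 0.00206), it had the smallest p of all members. It also kept its call without each array in turn, at log2 changes of -0.85 to -1.14, the only 1 of the 10 called genes to do so. It had a single probe set. USP3, which acts on histone H2A, had 2830 and 2575 in shikonin against 3509 and 3430 in DMSO. The groups did not overlap, and its log2 change was -0.36 (SE 0.070, limma adjusted p = 0.0138). Its second probe set fell by 0.47 (limma adjusted p = 0.0174), with 788 and 747 in shikonin against 1013 and 1129 in DMSO, and lost the call without shikonin 2 or DMSO 2 (0.064 and 0.0893). Without shikonin 2 or DMSO 1 the brighter USP3 probe set lost its call (0.0763 and 0.0503).

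The other nuclear USP genes did not pass on their brightest probe sets, at log2 changes of -0.48 to 0.40. USP7, which sets the level of the p53 ligase MDM2, had 3687 and 3741 in shikonin against 3645 and 3853 in DMSO, with a 95% interval of the log2 change of -0.15 to 0.13. USP36, a nucleolar enzyme, had 993 and 1185 in shikonin against 1171 and 1210 in DMSO on its brightest probe set (log2 change -0.13, limma adjusted p = 0.475). A dimmer USP36 probe set, at 224 and 276 in shikonin against 441 and 454 in DMSO, fell by 0.82 (limma adjusted p = 0.0108) and kept its call without each array in turn. The 2 remaining tested probe sets of USP36 lay at -0.08 and -0.30, so its probe sets disagreed in size. The widest estimates were those of USP27X (-0.48) and USP51 (0.40), while USP21 (-0.22), USP49 (-0.16), USP39 (0.10) and USP42 (0.16) lay between. USP22, the deubiquitinase of the SAGA coactivator, had a log2 change of 0.13, and USP16, which acts on histone H2A, one of 0.03.

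**Figure D2:**
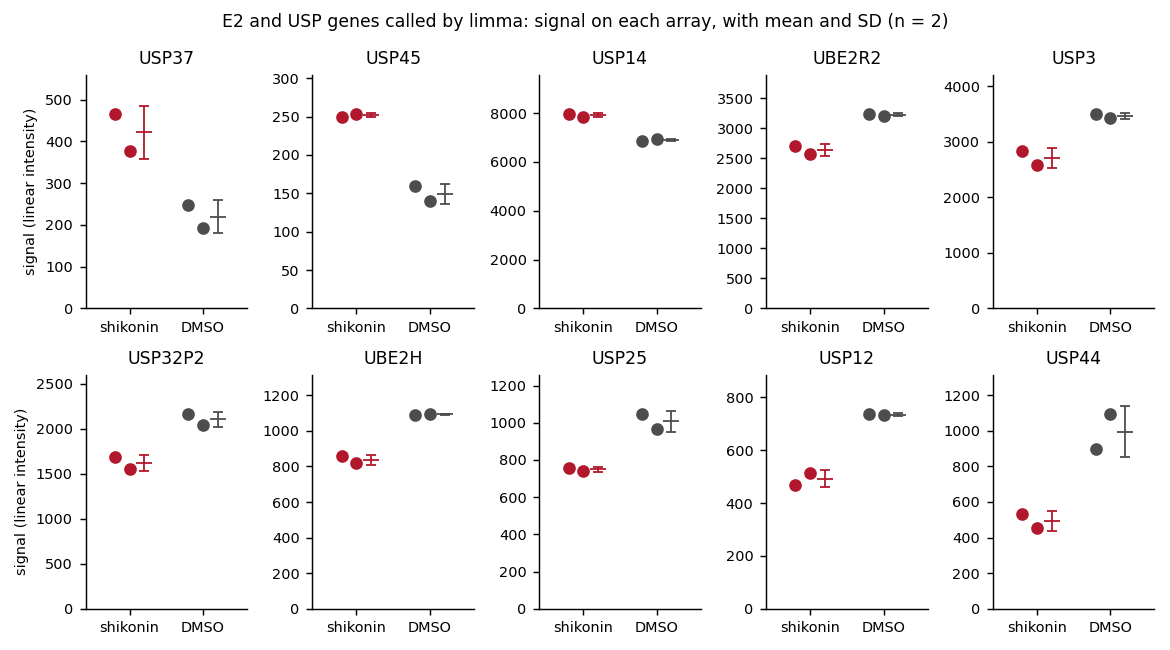
Signal (linear intensity, y axis from 0) of the 10 called genes on each array, with shikonin left and DMSO right in each panel. Points are arrays, and the mark beside them is the mean with its SD (n = 2). In all 10 panels the values of both shikonin arrays lie on 1 side of both DMSO arrays, from USP37 (467 and 378 against 247 and 192) to USP44 (532 and 455 against 895 and 1095).

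In DNA repair and the cell cycle, 1 of 7 USP genes rose and 1 fell (28.6% called, against 11.7% of all genes tested). USP37, which stabilises cyclin A, had 467 and 378 in shikonin against 247 and 192 in DMSO, all shikonin values above all DMSO values. It was 1.89-fold higher (log2 change 0.92, SE 0.18, limma adjusted p = 0.0133), while its 2 other probe sets lay at 0.25 and 0.42 with overlapping groups and did not pass. Without _x_at and _s_at probe sets, those that can read several transcripts, the change was 0.25 (limma adjusted p 0.48). Without shikonin 1 the change was 0.77 and the call was lost (limma adjusted p 0.0705). USP12, which with its relatives USP1 and USP46 is switched on by the adaptor WDR48, had 469 and 514 in shikonin against 738 and 732 in DMSO. It was 1.49-fold lower (log2 change -0.57, SE 0.11, limma adjusted p = 0.0121), and its second probe set lay at -0.53 without passing. The call ended without shikonin 1 (limma adjusted p 0.0513, log2 change -0.51).

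WDR48 fell as well, at 972 and 997 in shikonin against 1422 and 1204 in DMSO (log2 change -0.41, limma adjusted p = 0.0349). It lost the call without shikonin 1, shikonin 2 or DMSO 1 (0.104, 0.075 and 0.169). Its other catalytic partners did not pass: USP1, which acts on FANCD2 and PCNA, had 8454 and 7881 in shikonin against 8126 and 7984 in DMSO (95% interval -0.11 to 0.15), and USP46 had a log2 change of 0.07. USP2, known for stabilising cyclin D1, had 89.0 and 91.1 in shikonin against 144 and 166 in DMSO on its brightest probe set (log2 change -0.72, limma adjusted p = 0.0975). Its second tested probe set was called, at 15.8 and 11.7 in shikonin against 86.3 and 82.5 in DMSO (4-fold lower, limma adjusted p = 0.0381). Both shikonin values of that probe set lay below the 40th percentile, so the size is uncertain. The call ended without shikonin 1, shikonin 2, DMSO 1 or DMSO 2 (0.0552, 0.0681, 0.183 and 0.166). USP28 (-0.31) and USP47 (-0.17) did not pass.

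Among 6 USP genes of the proteasome, free chains and protein quality, 1 rose and 1 fell (33.3% called, against 11.7% of all genes tested). USP14, which sits on the proteasome and trims chains there, had 7984 and 7851 in shikonin against 6879 and 6930 in DMSO. The groups did not overlap, and the log2 change was small, 0.20 (SE 0.052, limma adjusted p = 0.0474). Its 2 other probe sets, at 0.13 and 0.16, also had both shikonin arrays above both DMSO arrays, but did not pass. USP14 lost the call without shikonin 1, shikonin 2, DMSO 1 or DMSO 2 (limma adjusted p 0.202, 0.148, 0.138 and 0.119), and after quantile normalization its change was 0.12 (0.127). PSMD14, the deubiquitinase built into the proteasome lid, rose by a like amount, at 11190 and 11498 in shikonin against 9354 and 9845 in DMSO (log2 change 0.24, limma adjusted p = 0.023), and lost the call without shikonin 1, shikonin 2 or DMSO 1 (0.0762, 0.124 and 0.0983).

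USP25, a USP with motifs that bind SUMO and ubiquitin, had 758 and 740 in shikonin against 1048 and 966 in DMSO (log2 change -0.42, SE 0.094, limma adjusted p = 0.0246). Its 3 other tested probe sets lay at -0.09, 0.03 and 0.15, each with overlapping groups. With the mean of its probe sets the change of USP25 was -0.09 (limma adjusted p 0.751), and without _x_at and _s_at probe sets it was 0.15 (0.809). The call also ended without shikonin 1, shikonin 2 or DMSO 1 (0.0643, 0.0815 and 0.115). USP9X, which protects many proteins from the proteasome, had 2542 and 2648 in shikonin against 2761 and 2507 in DMSO (95% interval -0.19 to 0.14). USP5, which takes apart free chains, had a log2 change of 0.27, USP13 one of -0.02 and USP19 one of -0.07, and none passed.

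Promoter windows were read for 7 motifs of stress and growth factors, a set chosen with results of these data known. RefSeq windows of GRCh38.p14 that reach from 250 bases before to 50 after a gene's start matched 23 UBE2 and 37 USP genes by symbol, among them 6 of the 10 called genes. The antioxidant response element (TGACNNNGC, both strands) stood in 3 of 23 UBE2 windows and 4 of 37 USP windows, against 13.6% of 27305 windows of all genes. USP14 was the only 1 of the 6 called genes with it. The heat shock element of 3 units stood in 0 of 23 UBE2 and 0 of 37 USP windows, against 0.487% of all windows. Its 2-unit forms, which overlap it, stood in 0 and 0 member windows (GAANNTTC, 6.87% of all) and in 1 UBE2 and 1 USP window (TTCNNGAA, 7.84% of all). The E-box (CACGTG) stood in 0 UBE2 and 3 USP windows (7.43% of all), and the cAMP response element in 1 UBE2 window, that of UBE2S, and 0 USP windows (1.98% of all). The EGR site (GCGGGGGCG, both strands) stood in 5 of 23 UBE2 windows, 2 of which belong to UBE2E2 and its divergent transcript UBE2E2-DT, and in 3 of 37 USP windows, among them USP25. It stood in 5.02% of all windows. Member windows were richer in G and C, with medians of 72.0% for UBE2 and 70.0% for USP genes against 58.3% for all genes, and the part of this in the count of GC-rich letters was not tested. The windows of USP14 and USP25, called genes with an antioxidant element and an EGR site and chosen after the matches were seen, are shown 5′ to 3′ on the strand of the gene, with the matched letters in capitals: USP14 at chr18:158307-158606 (+), where the match lies on the opposite strand, and USP25 at chr21:15729732-15730031 (+).
USP14: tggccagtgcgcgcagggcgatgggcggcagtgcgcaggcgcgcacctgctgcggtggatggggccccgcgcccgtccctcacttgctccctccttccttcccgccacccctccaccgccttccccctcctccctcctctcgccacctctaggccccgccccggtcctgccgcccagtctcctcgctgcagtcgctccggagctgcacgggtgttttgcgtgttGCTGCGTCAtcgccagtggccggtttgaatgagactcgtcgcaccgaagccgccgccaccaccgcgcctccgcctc
USP25: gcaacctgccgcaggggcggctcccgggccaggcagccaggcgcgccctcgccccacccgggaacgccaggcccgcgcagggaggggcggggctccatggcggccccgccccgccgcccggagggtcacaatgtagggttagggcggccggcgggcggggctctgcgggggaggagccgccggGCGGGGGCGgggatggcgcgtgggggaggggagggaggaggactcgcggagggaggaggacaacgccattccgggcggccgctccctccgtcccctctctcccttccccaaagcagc
A match describes these letters only. The EGR site stood in 2 of the 4 windows of members called lower and in 0 of the 2 of members called higher. USP14, with its antioxidant element, was called higher by 0.20, and USP25, 1 of the 2 called lower with an EGR site, had a log2 change of -0.42. The other members with an antioxidant element were not called on their brightest probe sets. They were USP2 (-0.72), USP13 (-0.02), USP38 (0.32), UBE2J1 (-0.06), UBE2K (0.16) and UBE2Q2 (0.16). The UBE2 genes with an EGR site, UBE2E2 (-0.02), UBE2E3 (0.06), UBE2J1 (-0.06) and UBE2Q2 (0.16), were not called, nor was USP28 (-0.31).

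The 4 tested USP genes of endosomes, mitochondria and trafficking all had negative estimates, with a median of -0.18, but limma called 0 (2 at an unadjusted p under 0.05). USP33, which acts on receptors and on the RALB GTPase, had 3362 and 3116 in shikonin against 3922 and 3719 in DMSO. The groups did not overlap, and the log2 change was -0.24 (limma adjusted p = 0.0599). Its 2 other probe sets lay at -0.29 and -0.16, and after quantile normalization USP33 was called (-0.25, limma adjusted p 0.0436). USP20, its close relative, had 688 and 856 in shikonin against 978 and 1008 in DMSO (log2 change -0.37, limma adjusted p = 0.0829), which was -0.52 and called without shikonin 2 (0.0263) and -0.21 without shikonin 1 (0.349). USP8, which acts on the sorting of growth factor receptors, had 3580 and 3507 in shikonin against 4014 and 3712 in DMSO, and its other probe set pointed the opposite way (-0.12 and 0.13). USP30, the USP of the outer mitochondrial membrane, had a log2 change of -0.07 with overlapping groups. Its other probe set lay at -0.51, at 214 and 193 in shikonin against 282 and 306 in DMSO, and did not pass (limma adjusted p = 0.0849).

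Among 6 USP genes of signalling and interferon, limma called 0 (3 at an unadjusted p under 0.05). USP4, which acts in TGF-beta and NF-kB signalling, had 2038 and 2210 in shikonin against 2560 and 2498 in DMSO (log2 change -0.25, limma adjusted p = 0.0613). One other USP4 probe set went the same way (-0.16), and a dim one, below the 40th percentile in DMSO, the opposite (1.39, limma adjusted p = 0.10). USP38 had 2434 and 1869 in shikonin against 1617 and 1795 in DMSO (log2 change 0.32, limma adjusted p = 0.128), which was 0.51 and called without shikonin 2 (0.0144) and 0.13 without shikonin 1 (0.53). USP18, which removes ISG15 from proteins, had 264 and 350 in shikonin against 383 and 425 in DMSO (log2 change -0.40, limma adjusted p = 0.172). USP11 (0.03), USP34 (0.05) and USP48 (-0.04) lay near 0 on their brightest probe sets. Other tested probe sets ran from -0.03 to 0.59 for USP34 and from -0.24 to 0.65 for USP48, without passing.

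Of the 8 remaining coding USP genes tested, 1 rose (12.5%, against 11.7% of all genes tested called in either direction). USP45, known for acting on the repair nuclease subunit ERCC1, had 250 and 254 in shikonin against 159 and 140 in DMSO, without overlap, and was 1.65-fold higher (log2 change 0.72, SE 0.18, limma adjusted p = 0.0392). Its 2 other tested probe sets lay at -0.45, with 2 arrays below the 40th percentile, and at 0.17, both with overlapping groups. The call ended without shikonin 1, shikonin 2, DMSO 1 or DMSO 2 (0.124, 0.131, 0.0638 and 0.126). With the mean of the probe sets the change was 0.15 (0.752). By log2 change, USP43 (-0.83, with 1 array below the 40th percentile), USP35 (-0.27), USP53 (-0.25), USP40 (-0.04) and USP54 (0.17) did not pass.

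USP31 and USP24 were called on a probe set other than the brightest, and are named after their values were seen. All 5 tested USP31 probe sets had both shikonin arrays above both DMSO arrays, at log2 changes of 0.23 to 0.43. The called USP31 probe set had 1141 and 1052 in shikonin against 892 and 808 in DMSO (log2 change 0.36, limma adjusted p = 0.0471), and lost the call without shikonin 1, shikonin 2, DMSO 1 or DMSO 2 (0.192, 0.0718, 0.0564 and 0.179). All 3 tested USP24 probe sets had both shikonin arrays below both DMSO arrays, at -0.21 to -0.67. The called USP24 probe set had 961 and 890 in shikonin against 1282 and 1175 in DMSO (log2 change -0.40, limma adjusted p = 0.0268), and lost the call without shikonin 2 or DMSO 1 (0.109 and 0.121).

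Counted by probe set, 4 of 71 UBE2 probe sets and 13 of 120 USP probe sets were called (5.63% and 10.8%, against 9.19% of all probe sets tested). These 17 belong to 14 genes, 4 of which, USP2, USP24, USP31 and USP36, were not called on their brightest probe set. For the 8 called genes with further tested probe sets, 12 of 16 further probe sets had the sign of the brightest one and 3 were called. Over all 50 members with further tested probe sets, called or not, 79 of 114 had that sign and 7 were called. UBE2R2 and USP3 had their other probe set called in the same direction, and UBE2H 1 of 4.

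**Figure D3:**
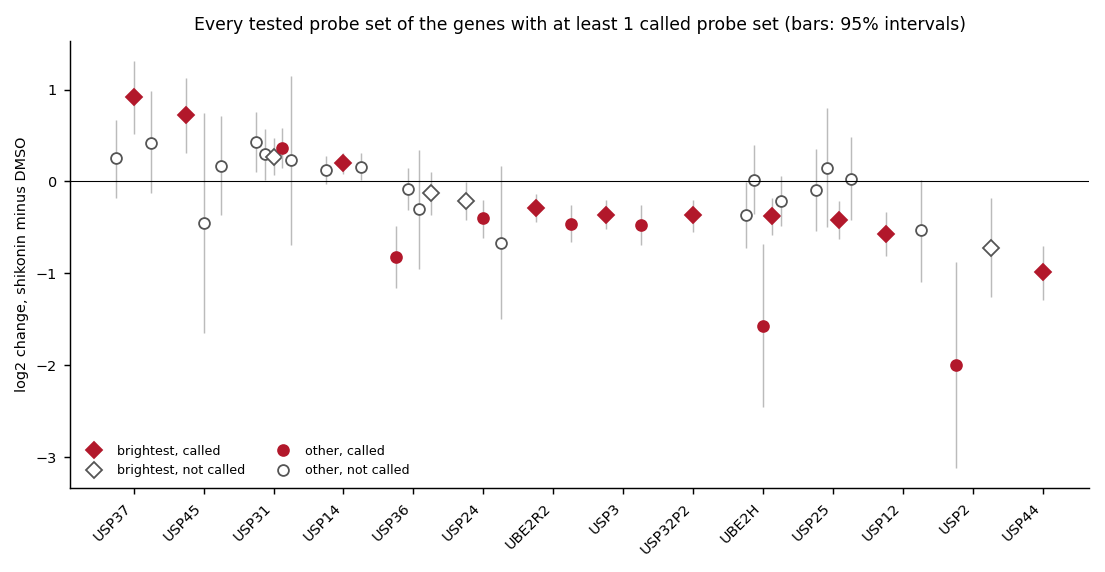
Log2 change (shikonin minus DMSO, y axis) of every tested probe set of the 14 genes with a called probe set. Diamonds are the brightest probe set of a gene, circles the others, filled symbols were called by limma, and bars are 95% intervals. The probe sets of UBE2R2, USP3, USP14 and USP31 lie together, and those of USP2, USP25, USP36, USP37, USP45 and UBE2H lie apart.

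The pseudogenes and noncoding members gave 1 call. USP32P2, a pseudogene related to USP32, had 1683 and 1557 in shikonin against 2164 and 2039 in DMSO (log2 change -0.37, SE 0.078, limma adjusted p = 0.0186). Its probe set is of the cross-hybridizing _x_at kind, so the copy it reads is uncertain, and the call ended without shikonin 2 or DMSO 1 (0.0891 and 0.0812). The antisense transcript USP30-AS1 had 51.2 and 59.8 in shikonin against 26.8 and 10.3 in DMSO (log2 change 1.26). Both of its DMSO values lay below the 40th percentile, and it did not pass. UBE2D3-AS1, also antisense, had 96.4 and 131 in shikonin against 42.2 and 88.3 in DMSO and did not pass, at 0.78. Both antisense transcripts and UBE2Q2P13 (-0.63), which did not pass either, are named after their values were seen. By log2 change, USP3-AS1 (0.54), UBE2Q2P16 (0.37), USP2-AS1 (0.21) and USP27X-DT (0.19) did not pass.

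The other steps of the pathway were read from lists of genes. The ubiquitin gene UBB had 25667 and 27364 in shikonin against 22481 and 24685 in DMSO (log2 change 0.17, limma adjusted p = 0.104). Limma called 0 of 7 ubiquitin-like modifiers (median log2 change 0.11, 2 at an unadjusted p under 0.05) and 0 of 7 E1 enzymes (median 0.07, 1 at an unadjusted p under 0.05). UBA1, the main E1 of ubiquitin, had 10778 and 11275 in shikonin against 10399 and 11154 in DMSO. Of 9 further E2 enzymes and adaptors, WDR48 was the 1 that fell and 0 rose (11.1% called, against 11.7% of all genes tested).

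Among 29 deubiquitinases other than USP genes, 3 rose and 4 fell (24.1% called, against 11.7% of all genes tested), with a median of -0.09. The list was chosen with earlier results known, and the difference in share was not tested. The median signal of these genes was 715, against 580 over all genes, and brighter genes were called more often. The part of brightness in the share was not tested. YOD1, an OTU enzyme that works with the segregase p97, averaged 957 ± 29.3 in shikonin and 1654 ± 67.4 in DMSO (SD, n = 2 each). It was 1.72-fold lower (log2 change -0.78, SE 0.082, limma adjusted p = 0.000677) and kept its call without each array in turn. CYLD, a brake on NF-kB signalling, had 250 and 241 in shikonin against 394 and 362 in DMSO (log2 change -0.60, limma adjusted p = 0.0312), and its call ended without shikonin 1, shikonin 2, DMSO 1 or DMSO 2 (0.0744, 0.0922, 0.137 and 0.0711). That probe set is of the _s_at kind: without _x_at and _s_at probe sets the sign of CYLD turned (0.06, limma adjusted p 0.908), and on the mean of its probe sets the change was -0.31 (0.488). STAMBP, an endosomal enzyme, fell by 0.42 (limma adjusted p = 0.0244), a call that ended without the same arrays (0.083, 0.0649, 0.0612 and 0.102). The 4th that fell, ZRANB1 (-0.38), and the risers besides PSMD14, OTUD1 (0.71) and TNFAIP3 (0.41), are named after their values were seen. Leaving out each array in turn ended the call of ZRANB1 (0.0525 to 0.141) and of TNFAIP3 (0.0568 to 0.224), and leaving out shikonin 1 or DMSO 1 that of OTUD1 (0.18 and 0.156).

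HECT and RBR ligases are the E3 classes that take ubiquitin onto a cysteine of their own. Of 29 tested, 2 rose and 4 fell (20.7% called, against 11.7% of all genes tested), with a median of -0.06. The difference in share was not tested, nor was the part of brightness in it (median signal 848, against 580 over all genes). SMURF1, a HECT ligase of the BMP pathway, had 420 and 364 in shikonin against 837 and 715 in DMSO (1.95-fold lower, limma adjusted p = 0.00228). RNF19A, an RBR ligase, had 788 and 670 in shikonin against 1208 and 1250 in DMSO (1.68-fold lower, limma adjusted p = 0.00276). RBCK1, a subunit of the complex that makes linear chains, had 2611 and 2499 in shikonin against 3450 and 3560 in DMSO (1.37-fold lower, limma adjusted p = 0.0033). These 3 calls held without each array in turn, but with the mean of all probe sets of a gene SMURF1 had a log2 change of -0.37 (0.301) and RBCK1 one of 0.03 (0.922). UBE3C, a HECT ligase that binds the proteasome, rose, at 2270 and 2006 in shikonin against 1583 and 1595 in DMSO (log2 change 0.42, limma adjusted p = 0.0137), and lost the call without shikonin 1 (0.0781). The others called were AREL1 (0.38) and RNF19B (-0.43), named after their values were seen: AREL1 lost the call without any 1 array (0.0607 to 0.108), and RNF19B without shikonin 2, DMSO 1 or DMSO 2 (0.163, 0.138 and 0.0764).

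**Figure D4:**
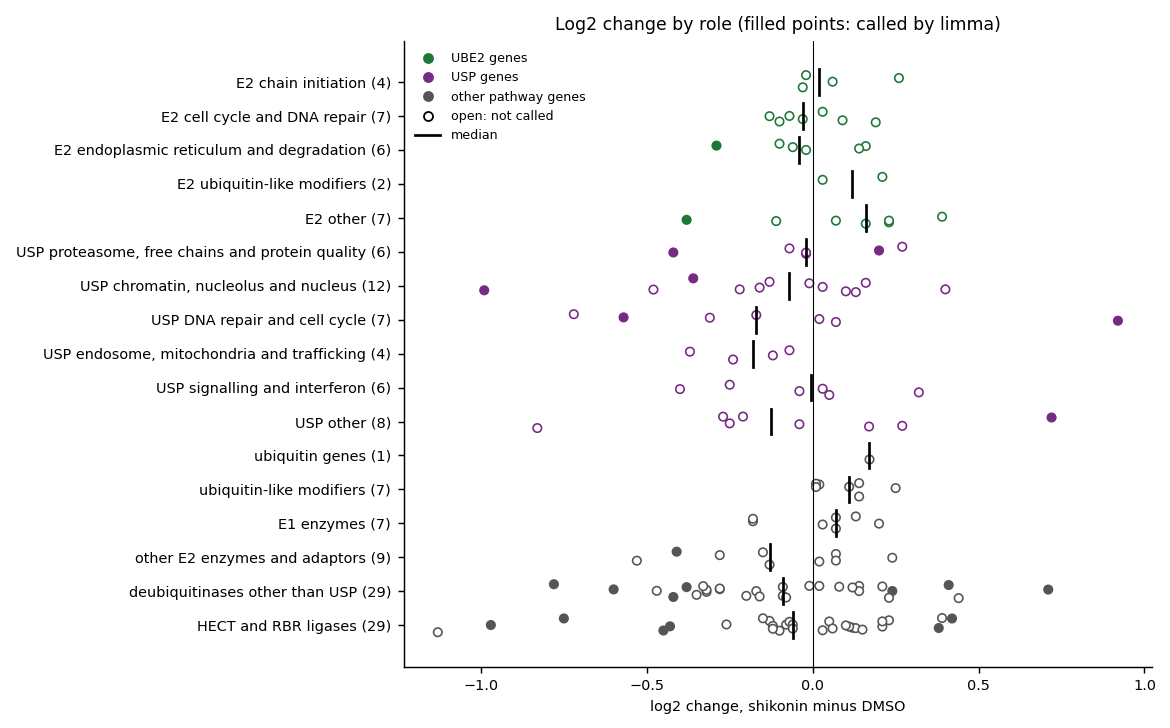
Log2 change (shikonin minus DMSO, x axis) of the tested genes by role, with the number tested in brackets. Points are genes on their brightest probe set, filled where limma called them, and black bars are medians. The coding UBE2 genes lie between -0.38 and 0.39, and the coding USP genes between -0.99 and 0.92.

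Without regard to the test, both shikonin arrays lay beyond both DMSO arrays in 12 UBE2 genes upward and 7 downward, and in 11 USP genes upward and 17 downward. The same held for 28.2% of all genes tested upward and 27.3% downward. Together these were 65.5% of UBE2 genes and 58.3% of USP genes, against 55.5% of all genes tested.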

How the data were processed

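What the authors deposited is 1 intensity per probe set and array, on a linear scale. No source used here names the software behind it. Without the lowest and highest 2%, each array's mean was 500.1, so the arrays share a common scale. The platform annotation gave the gene names, and 9 probe sets that pair a member with further genes were left out. Signals were converted to log2(signal + 9.94), the 20th percentile of all values, which understates folds of dim genes. Control probe sets and the dimmest 40% of the others were dropped, leaving 32768. Two-sided tests used limma 3.58.1 in R 4.3.3 (lmFit, eBayes with a variance trend) on all 4 arrays without a block, with 2 residual and 7.1 prior degrees of freedom. A gene was read on its brightest probe set. Alternatives changed the pseudocount, filter, scaling, variance prior, probe sets, block and arrays. The number of arrays limits the precision.

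Members, lists and tests were chosen with earlier results of these data known. Named were called members, up to 2 genes of smallest p in each role group without a call, a fixed set (13 of 20 tested, the others not analysed here), up to 4 called genes of each other list, and further genes in passing to complete a role group or a motif. Promoter windows came from RefSeq (GRCh38.p14), and the sequence of 1 called gene with a match is not reported here.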

Additional observations from a re-analysis of the deposited data

How the results depend on the processing

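Counts of called genes are given as UBE2 higher, UBE2 lower, USP higher and USP lower, which were 0, 2, 3 and 5 with all arrays. Both other pseudocounts left all 4 unchanged. They were 0, 1, 1 and 5 with no filter, 1, 2, 3 and 7 with the dimmest 60% left out, and 0, 2, 2 and 6 after quantile normalization. They were 0, 2, 1 and 6 on gene means, 0, 1, 0 and 2 without _x_at and _s_at probe sets, and 0, 0, 0 and 0 with a single variance prior. Leaving out each array in turn gave 0 to 1, 0 to 1, 0 to 2 and 2 to 5. With the replicate number as a block they were 2, 3, 4 and 9. Counts over all genes moved too, from 678 higher and 905 lower in the main fit. They were 350 and 609 with no filter, 873 and 1090 with the dimmest 60% left out, and 687 and 852 after quantile normalization. They were 575 and 771 on gene means, 475 and 662 without _x_at and _s_at probe sets, and 1254 and 1345 with the block. Leaving out any 1 array lowered both counts over all genes. Over the probe sets kept, deviations of same-numbered arrays from their group means correlated at 0.02. With 2 arrays per group both pairs give this same value. The numbers are not taken to pair the samples. With coding members only, an alternative chosen after seeing the data, the counts were 0, 2, 3 and 4. Equal counts did not always hold the same genes. UBE2H was not called after quantile normalization (limma adjusted p 0.0513), where UBE2S was, nor on gene means (0.0536), where UBE2G2 was. On gene means USP2 (-1.36) and USP24 (-0.43) were called lower and USP25 was not. The UBE2 median log2 change was 0.06 on gene means, 0.07 without _x_at and _s_at probe sets and 0.02 to 0.07 without each array. The USP median was -0.09 to -0.04 without each array. Their difference was 0.05 after quantile normalization, 0.09 without _x_at and _s_at probe sets, 0.09 with coding members only and 0.08 to 0.13 without each array. Signs turned on gene means for USP4 (0.33), UBE2B (0.25), USP1 (-0.05), USP7 (0.01), USP8 (0.00) and RBCK1 (0.03). Without _x_at and _s_at probe sets they turned for USP25 (0.15), UBE2B (0.38), USP7 (0.09), USP9X (0.04) and CYLD (0.06), and after quantile normalization for UBE2C (0.01) and USP1 (-0.07). Leaving out an array turned UBE2L6 (-0.02), UBE2C (0.04), USP1 (-0.03) and USP9X (0.01) without shikonin 1, UBE2C (0.02) and USP9X (0.05) without DMSO 1, and UBE2E3 (-0.02) and USP7 (0.03) without DMSO 2, with ranges of -0.02 to 0.14 for UBE2E3 and -0.10 to 0.04 for UBE2C. The probe sets read differ between these choices, and the cause was not tested. Signals near the 40th percentile limit what dim probe sets can show.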
